A study of Homo sapiens with 5 samples.

Results

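Integrin subunit genes were followed after repression of AKAP12 in SW480 cells, a line long in culture that came from a human colorectal tumour. The 10 genes are ITGA2, ITGA3, ITGA5, ITGA6, ITGAV, ITGB1, ITGB4, ITGB5, ITGB6 and ITGB8, taken by name from count files of 26485 genes. They were listed as the subunits from which an epithelial cell of this kind could build its receptors. All 10 had a row in the files, 8 passed the filter on low counts, and ITGB6 and ITGB8 did not. There were 3 knockdown libraries, from cells transduced with a guide RNA against AKAP12 and labelled shAKAP12. There were 2 control libraries, from cells transduced with control guides and labelled shControl. Cells of both groups expressed dCas9-KRAB, a Cas9 without nuclease activity joined to a repressor domain, which represses a gene at the position of the guide (CRISPR interference). The labels therefore name CRISPR interference in one field and short hairpin RNA in another. RNA was taken 48 hours after seeding, and libraries read the 3' part of poly(A) transcripts (QuantSeq FWD). Whether a group was 1 clone or a mixed population, and whether replicates were separate cultures, is not given in the sources used here. The p-values therefore measure the spread between these libraries, which may be technical.

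An integrin is a pair of membrane chains, one alpha and one beta, and the pair decides which matrix protein the cell can hold. In colon epithelium ITGB1 pairs with several alpha chains for collagen, laminin and fibronectin, and ITGA6 with ITGB4 holds laminin at hemidesmosomes, the junctions that join the keratin network to the basement membrane. ITGAV pairs with ITGB5, ITGB6 or ITGB8 (and with ITGB1) to bind ligands with an RGD motif, such as vitronectin and latent TGF-beta. A chain with no partner is held inside the cell, so surface receptor cannot be read from the mRNA of one chain alone.

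AKAP12, the targeted scaffold gene of kinases A and C, had 1159, 1063 and 1008 CPM (counts scaled to a common library total, with TMM factors) in the knockdown libraries and 2870 and 1550 CPM in the controls. Every knockdown library was below both controls. The log2 fold change of -1.04 missed the threshold of 0.05 by edgeR (SE 0.31, edgeR adjusted p = 0.0513). It was -0.52 without control 1 and -1.42 without control 2, and AKAP12 was lower in all 13 alternatives. DESeq2 called AKAP12 lower (adjusted p = 0.0110), as did limma-voom (adjusted p = 0.0453) and the authors' deposited table (adjusted p = 0.0124). Library size alone (edgeR adjusted p = 0.0716) and the replicate number as a block (edgeR adjusted p = 0.298) did not. Here and below, the direction of the deposited table was read from its correlation with the values fitted here, so its direction is not a separate result. Total counts were 6890868 to 9311026 in the knockdown and 4935096 and 8670141 in the controls. Control 1 stood apart from every other library: short non-coding RNA genes took 0.644% to 0.934% of counts in the knockdown libraries, against 8.65% in control 1 and 1.73% in control 2. The part of these differences in the integrin values was not tested. TERT had 4198 to 17172 reads in the knockdown libraries and 366479 and 306715 in the controls. The groups thus differed in TERT as well as in AKAP12. Both controls shared this difference, so leaving out either control does not remove it. Its part in the integrin values was not tested. Because control 1 stood apart, fold changes are also given without each control. Those fits take their spread from the knockdown libraries and assume that the lone control varies like them. Epithelial markers matched the label in part. EPCAM had 613 to 878 reads in the knockdown and 688 and 727 in the controls, but CDH1 and VIL1 had 31 reads or fewer in every library, and KRT20 had reads in 1 library only. The 10 epithelial markers summed to 1423 to 1689 CPM in the knockdown and 1042 and 1582 CPM in the controls. Markers of blood cells summed to 106.8 to 126.0 CPM in the knockdown libraries and 117.3 and 133.4 CPM in the controls, with 12 of 12 detected in at least 1 library. PTPRC, which marks all leukocytes, had 34.8 to 46.9 CPM in the knockdown and 28.9 and 43.6 CPM in the controls. Stromal markers summed to 543.9 to 610.7 CPM in the knockdown and 454.9 and 575.1 CPM in the controls, and endothelial and platelet markers to 48.8 to 60.4 CPM in the knockdown and 48.7 and 75.4 CPM in the controls. The part of such transcripts in the integrin values was not tested. In bulk RNA, fewer cells of a kind and less RNA per cell cannot be told apart.

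Among the alpha chains, ITGA3 fell in the knockdown, and the other 4 did not pass the test. Of the 8 tested integrin genes, 1 fell and 0 rose by edgeR's quasi-likelihood test. At an unadjusted p under 0.05, 3 were lower (ITGA3, ITGA5, ITGB4) and 1 was higher (ITGB5), where 40.5% of all genes passed this looser threshold. The share called was 12.5% of these integrin genes, against 22.6% of all 14536 genes tested (11.2% higher and 11.4% lower). The median log2 fold change of the 8 genes was -0.21, against 0.04 over all tested genes. Without control 1, 1 of these genes was called higher and 3 lower, where 37.3% of all genes were called. Without control 2 the counts were 1 and 2, where 58.1% were called. DESeq2 called 1 higher and 1 lower (31.9% of all genes). The replicate number as a block left none (1.44% of all genes). In 6 other alternatives, 1 was called lower and 0 higher, with 23.2% of all genes called by RLE scaling, 18.2% by library size alone, 21.1% by limma-voom, 16.9% with no filter, 29% with a stricter filter and 23% without TERT and short RNA genes. With any 1 knockdown library left out, 0% of all genes were called.

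ITGA3 pairs with ITGB1 to form a receptor for laminins of the epithelial basement membrane (chromosome 17, 50055976 to 50090485, plus strand, hg38). It had 38.9, 35.6 and 40.0 CPM in the knockdown libraries, against 127.4 and 101.4 CPM in the controls. The knockdown libraries lay close together and every one was below both controls. By the edgeR model, expression in the knockdown was 2.99-fold lower (log2 fold change -1.58, SE 0.20, edgeR adjusted p = 0.0131). The log2 fold change was -1.41 without control 1 and -1.74 without control 2, and in the authors' deposited table it was -1.60. The call was lost when any 1 knockdown library was left out (edgeR adjusted p of at most 0.125) and with the replicate number as a block (edgeR adjusted p = 0.0622).

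ITGA6, the laminin-binding chain shared by ITGB1 and ITGB4, lies on chromosome 2 (172427586 to 172506453, plus strand). It had 333.1, 283.7 and 316.7 CPM in the knockdown libraries and 396.1 and 273.3 CPM in the controls. The groups overlapped, since the knockdown values all lay between the controls. Its log2 fold change was -0.10 (SE 0.23, edgeR adjusted p = 0.762), and it was 0.13 with library size as the only scaling. It passed the threshold only without control 2, at -0.35 (edgeR adjusted p = 0.0377), over the 13 alternatives, and was 0.19 without control 1.

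ITGA2, the collagen-binding partner of ITGB1 (chromosome 5, 52989326 to 53094779, plus strand), also overlapped between groups. It had 25.2, 23.6 and 25.7 CPM in the knockdown libraries and 33.3 and 22.4 CPM in the controls (log2 fold change -0.16, SE 0.25, edgeR adjusted p = 0.660). It was 0.15 without control 1 and 0.074 with library size as the only scaling. ITGA5, the fibronectin-binding partner of ITGB1 (chromosome 12, 54395261 to 54419266, minus strand), was at 13.4, 11.3 and 14.1 CPM in the knockdown and at 16.9 and 26.6 CPM in the controls. All knockdown values were below both controls, and control 2 was the library that stood highest. Its log2 fold change was -0.76 (SE 0.28, edgeR adjusted p = 0.0875). It passed the threshold only without control 1, at -1.04 (edgeR adjusted p = 0.000516), over the 13 alternatives, and was -0.39 without control 2.

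ITGAV, the chain shared by the RGD receptors of ITGB5, ITGB6 and ITGB8, lies on chromosome 2 (186590063 to 186680902, plus strand). It had 59.8, 53.8 and 57.7 CPM in the knockdown libraries and 69.6 and 67.3 CPM in the controls. The groups did not overlap, but the difference did not pass the test (log2 fold change -0.26, SE 0.18, edgeR adjusted p = 0.321). With library size as the only scaling the log2 fold change was -0.05.

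**Figure D1:**
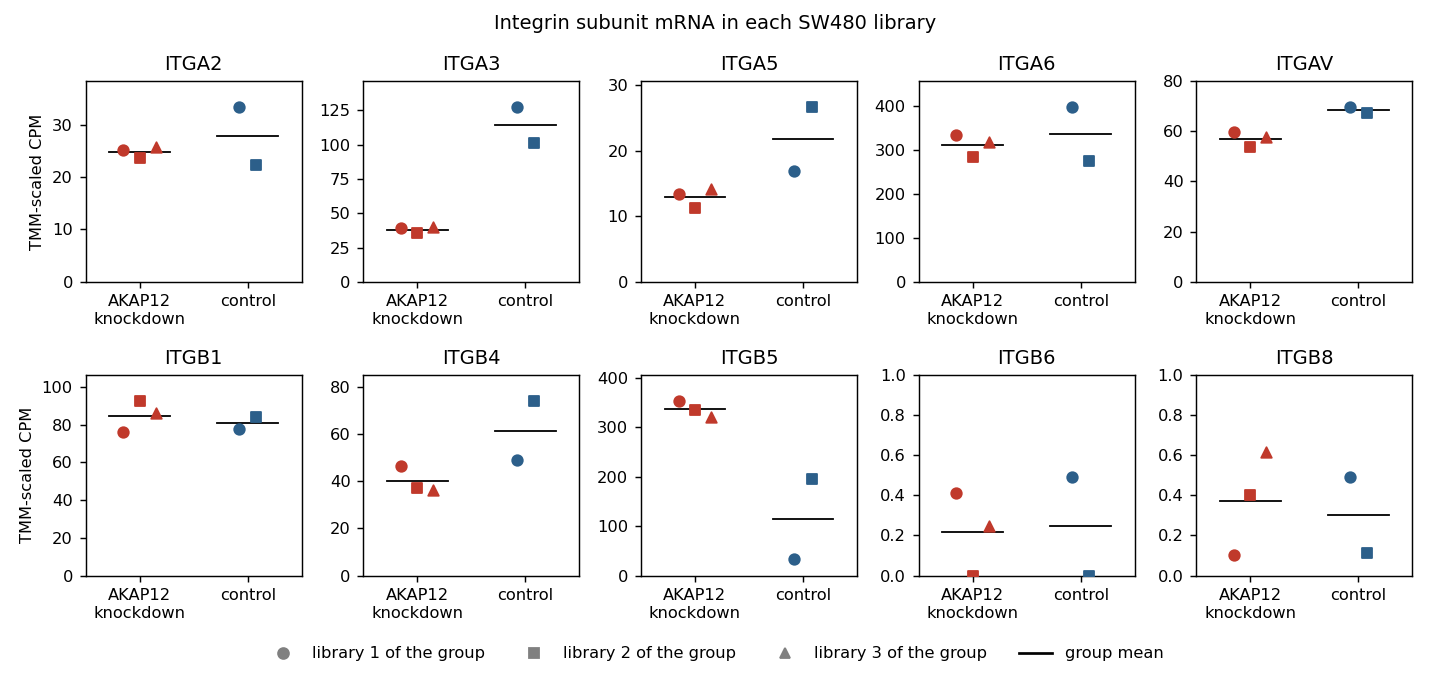
TMM-scaled CPM of the 10 integrin genes in each library (points, symbols for the library number) with the mean of each group (line), AKAP12 knockdown left and control right, on linear axes from 0. ITGA3 lies at 35.6 to 40.0 CPM in the knockdown and above 100 CPM in both controls, and ITGB5 at 320.9 to 353.6 CPM in the knockdown and at 32.8 and 195.2 CPM in the controls.

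No beta chain passed the edgeR test. ITGB5 differed most in value among the 3 tested, and its controls also differed most from each other. ITGB5 pairs with ITGAV and binds vitronectin (chromosome 3, 124761949 to 124887305, minus strand). It had 353.6, 336.3 and 320.9 CPM in the knockdown libraries, against 32.8 and 195.2 CPM in the controls. All knockdown values were above both controls, and control 2 was closer to the knockdown than to control 1. The fitted log2 fold change was 1.56 (SE 0.65, edgeR adjusted p = 0.122). It was 0.79 without control 1 and 3.35 without control 2, so the size of the difference rested on which control was kept, while the direction held in all 13 alternatives. DESeq2 called it (adjusted p = 0.0358), as did the authors' deposited table (log2 fold change 1.56, adjusted p = 0.0336). Limma-voom did not (adjusted p = 0.0613). Without either control the fit also passed the threshold. With TERT and the short RNA genes removed before scaling, the log2 fold change was 1.55 (edgeR adjusted p = 0.119).

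ITGB1, the beta chain common to the collagen, fibronectin and several laminin receptors, varied least between the groups (chromosome 10, 32900318 to 32958365, minus strand). It had 75.9, 92.5 and 86.2 CPM in the knockdown libraries and 77.9 and 84.0 CPM in the controls. Both controls lay inside the range of the knockdown. The log2 fold change was 0.07 (SE 0.19, edgeR adjusted p = 0.816).

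ITGB4, whose long cytoplasmic tail joins ITGA6 to the keratin network, lies on chromosome 17 (75721436 to 75757818, plus strand). It had 46.4, 37.2 and 36.1 CPM in the knockdown libraries and 48.7 and 73.9 CPM in the controls. The highest knockdown library was just below control 1, and control 2 was well above all others. The log2 fold change was -0.62 (SE 0.25, edgeR adjusted p = 0.112), with -0.88 without control 1 (edgeR adjusted p = 0.000213) and -0.29 without control 2. It passed in no other of the 13 alternatives.

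ITGB6 and ITGB8, the beta chains that with ITGAV release active TGF-beta from its latent form, were at the limit of detection. ITGB6 (chromosome 2, 160099666 to 160200313, minus strand) had 4, 0 and 2 reads in the knockdown libraries and 2 and 0 reads in the controls. ITGB8 (chromosome 7, 20331102 to 20415759, plus strand) had 1, 3 and 5 reads in the knockdown and 2 and 1 reads in the controls. A count of 0 allows 0.402 CPM in knockdown library 2 and 0.344 CPM in control 2, taking 3 counts as the limit and counting error only. After scaling the summed reads of each group (6 against 2 for ITGB6, 9 against 3 for ITGB8) to the group's summed TMM-scaled library size, the ratio of knockdown over control was 1.51 for both. Exact 95% counting intervals were 0.271 to 15.3 for ITGB6 and 0.378 to 8.69 for ITGB8, so no difference was detectable at this depth. As a ratio of mean CPM, ITGB6 was at 0.892 and ITGB8 at 1.23. Exons of ITGB8 overlap the antisense gene LOC101927811 and those of ITGA5 overlap LOC102724050, and each of these had 11 reads or fewer per library. The other 8 integrin genes share no exon position with another gene in the files.

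**Figure D2:**
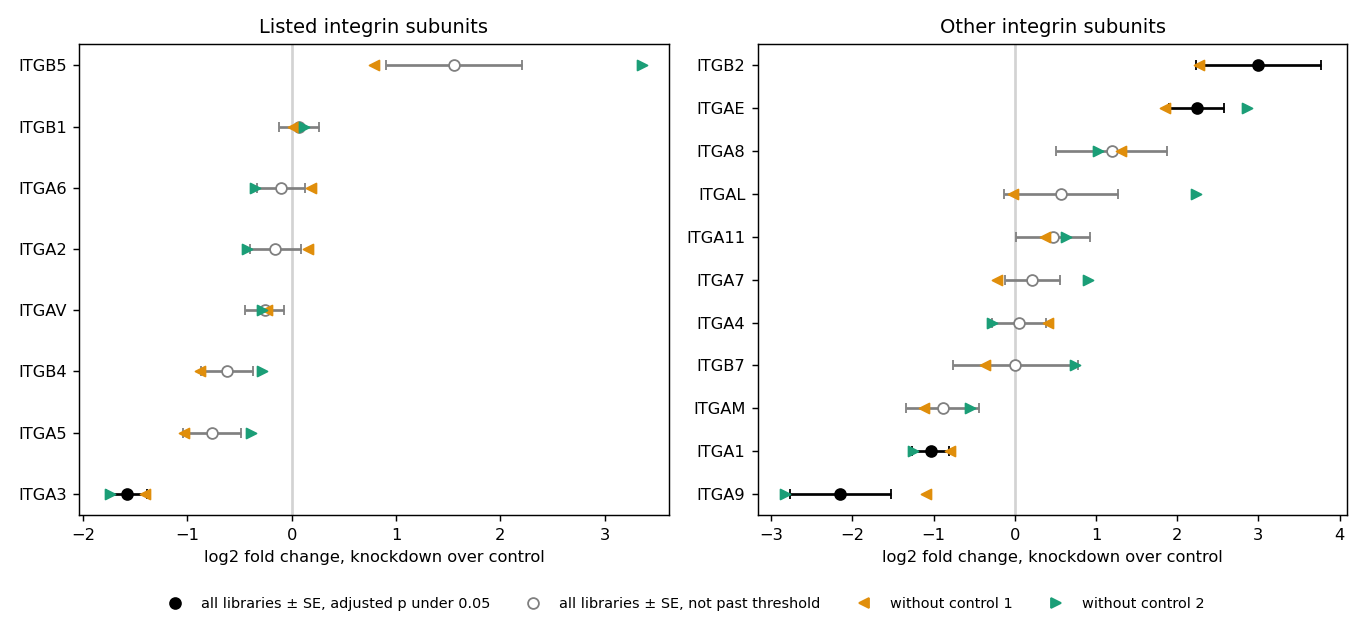
Log2 fold changes (knockdown over control) of the 8 tested integrin genes of the list, left, and of the 11 other tested integrin genes, right, with all libraries (circles with SE bars, filled where the edgeR adjusted p was under 0.05) and without either control (triangles). ITGA3 stays between -1.74 and -1.41, while ITGB5 runs from 0.79 to 3.35; the value of ITGB2 without control 2 is not drawn, because control 1 had 0 reads.

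The promoters of 4 beta chains are shown to set well-detected chains beside barely detected ones: ITGB1 and ITGB5 had at least 134 reads in every library, and ITGB6 and ITGB8 at most 5. Each is 300 bases, from 250 before to 50 after the RefSeq start nearest to that of the count files, read on the strand of the gene (RefSeq, GRCh38.p14). These starts lay 135 (ITGB1), 60 (ITGB5), 41 (ITGB6) and 202 (ITGB8) bases from those of the count files. The windows of ITGB5 and ITGB8 thus ended upstream of the start used for counting. Capitals mark the GC box, GGGCGG or its reverse CCGCCC, the core site of SP-family factors.
ITGB1, chr10:32958181-32958480, minus strand: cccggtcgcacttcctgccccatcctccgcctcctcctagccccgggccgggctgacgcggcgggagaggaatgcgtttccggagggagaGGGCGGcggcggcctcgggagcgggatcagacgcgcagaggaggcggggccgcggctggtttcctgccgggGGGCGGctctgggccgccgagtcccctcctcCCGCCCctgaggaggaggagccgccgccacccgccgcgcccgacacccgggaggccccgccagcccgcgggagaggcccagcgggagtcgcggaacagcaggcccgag
ITGB5, chr3:124887316-124887615, minus strand: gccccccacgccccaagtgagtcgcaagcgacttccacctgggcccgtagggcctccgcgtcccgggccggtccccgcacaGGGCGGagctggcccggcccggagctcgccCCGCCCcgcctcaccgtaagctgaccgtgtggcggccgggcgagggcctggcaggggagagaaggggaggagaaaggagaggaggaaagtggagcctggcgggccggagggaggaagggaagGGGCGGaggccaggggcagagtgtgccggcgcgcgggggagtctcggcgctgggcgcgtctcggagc
ITGB6, chr2:160200223-160200522, minus strand: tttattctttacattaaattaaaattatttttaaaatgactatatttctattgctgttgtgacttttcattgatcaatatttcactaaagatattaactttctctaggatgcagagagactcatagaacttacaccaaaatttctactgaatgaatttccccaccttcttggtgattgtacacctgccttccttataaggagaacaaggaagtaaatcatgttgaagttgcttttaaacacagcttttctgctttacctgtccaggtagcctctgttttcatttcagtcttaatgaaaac
ITGB8, chr7:20330650-20330949, plus strand: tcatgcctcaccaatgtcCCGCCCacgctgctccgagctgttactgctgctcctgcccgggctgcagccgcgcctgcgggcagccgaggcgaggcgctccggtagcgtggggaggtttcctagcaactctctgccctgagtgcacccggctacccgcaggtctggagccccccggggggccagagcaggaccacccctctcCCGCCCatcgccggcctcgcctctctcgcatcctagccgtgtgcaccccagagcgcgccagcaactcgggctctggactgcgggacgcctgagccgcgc
The ITGB6 window held 31.7% G and C with 0 CpG dinucleotides and no GC box. The other windows held 78.3% with 39 CpG (ITGB1), 75.7% with 32 CpG (ITGB5) and 71.7% with 28 CpG (ITGB8), against a median of 58.7% and 14 CpG over 35116 promoters of this length. The GC box appeared 3, 3 and 2 times in ITGB1, ITGB5 and ITGB8, and 45.0% of all these promoters hold at least 1. The barely detected chains thus differed from each other in composition, ITGB8 lying near ITGB1 and ITGB5. The AP-1 element TGANTCA, present in 7.71% of all promoters, and the cAMP response element TGACGTCA, present in 1.85%, were also searched on both strands. Among the 8 integrin genes with a promoter entry, ITGA5 held 1 AP-1 element and none held a cAMP response element. These letters do not overlap those of the GC box. ITGA3 and ITGB4 had no entry in the table.

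Per kilobase of exon, ITGB5 was the most abundant of these subunit transcripts in the knockdown, and ITGA6 in the controls. Reads of 3' libraries are not expected to scale with transcript length, so this order depends on the scale chosen. In CPM per kilobase, ITGB5 stood at 73.3 to 80.8 and ITGA6 at 48.8 to 57.3 in the knockdown libraries, with no overlap between them. In plain CPM their knockdown ranges overlapped, at 320.9 to 353.6 for ITGB5 and 283.7 to 333.1 for ITGA6. In the controls ITGA6 led at 68.2 and 47.0 CPM per kilobase, and ITGB5 ranked 6 of 10 in control 1, with 7.50, and 2 of 10 in control 2, with 44.6. ITGB1 ranked 3 in every library on the scale per kilobase, at 18.6 to 22.6 in the knockdown and 19.1 and 20.5 in the controls. Below it in the knockdown came ITGAV, ITGA3 and ITGB4, at 7.47 to 8.29, 7.09 to 7.95 and 5.95 to 7.63 CPM per kilobase, where neighbours in the order overlapped. In the controls ITGA3 stood at 25.3 and 20.2 CPM per kilobase, beside ITGB1. In plain CPM it was above ITGB1 in both controls, at 127.4 and 101.4 against 77.9 and 84.0. Per kilobase, ITGA3 ranked 5 of 10 in each knockdown library, against 2 and 4 in the controls. ITGA2 and ITGA5 closed the detected list in every library, at 2.65 to 3.33 CPM per kilobase in the knockdown and 2.83 to 6.26 in the controls.

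The share of each chain within a library does not depend on scaling between libraries. Of the summed reads of the 5 alpha chains, ITGA3 held 8.27%, 8.73% and 8.80% in the knockdown libraries, against 19.8% and 20.6% in the controls. The exact binomial 95% intervals ran from 7.49% to 9.79% over the knockdown libraries and from 18.3% to 21.9% over the controls, so they stayed apart. They cover the counting error within a library only, not the spread between libraries. ITGA6 held 70.8%, 69.5% and 69.7% in the knockdown and 61.6% and 55.7% in the controls. Its CPM overlapped between the groups (above), and a share is relative to the other chains. ITGAV (12.7% to 13.2% in the knockdown, 10.8% and 13.7% in the controls) and ITGA5 (2.76% to 3.11%, against 2.63% and 5.42%) overlapped between groups. ITGA2 held 5.35% to 5.78% in the knockdown and 5.18% and 4.56% in the controls.

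Among the 5 beta chains, ITGB5 held 74.2%, 72.1% and 72.3% of summed reads in the knockdown libraries, against 20.5% and 55.3% in the controls. ITGB1 held 15.9%, 19.8% and 19.4% in the knockdown and 48.5% and 23.8% in the controls, and ITGB4 held 9.74%, 7.98% and 8.14% against 30.4% and 20.9%. A share is relative, and the CPM of ITGB1 overlapped between the groups (above). ITGB6 and ITGB8 together with ITGB5 are the beta chains that pair with ITGAV alone, and ITGB5 made up 99.7% to 99.9% of that group in the knockdown and 97.1% and 99.9% in the controls. With 3 libraries against 2, the exact permutation test cannot go below p = 0.1, which the shares of ITGA2, ITGA3, ITGA6, ITGB1, ITGB4 and ITGB5 reached (0.217 adjusted over the 13 shares).

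**Figure D3:**
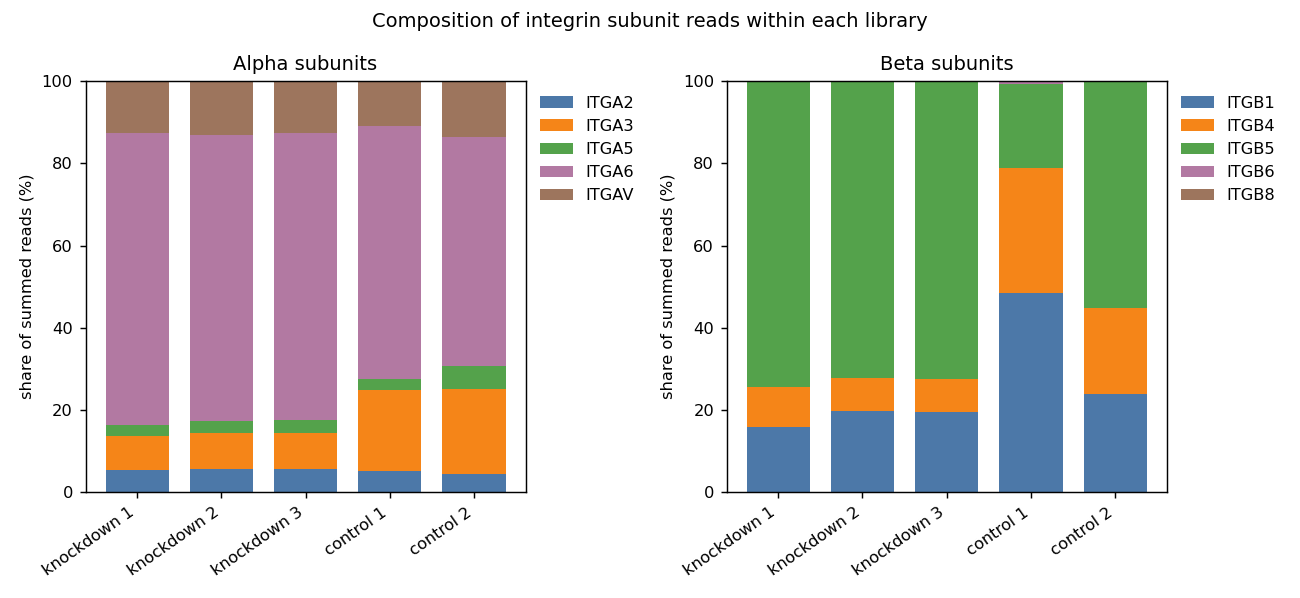
Share (%) of each subunit in the summed reads of the 5 alpha genes (left) and of the 5 beta genes (right), as stacked bars for each library, knockdown libraries left of the controls. ITGA3 takes 8.27% to 8.80% of alpha reads in the knockdown and 19.8% and 20.6% in the controls, and ITGB5 takes over 72% of beta reads in the knockdown and 20.5% and 55.3% in the controls.

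Read as receptor pairs, ITGAV with ITGB5 and ITGA3 with ITGB1 had the largest differences in proportion among the pairs compared. ITGB5 had 9.74, 10.3 and 9.16 times the reads per kilobase of ITGAV in the knockdown libraries, against 0.777 and 4.77 times in the controls. Without division by length these ratios were 5.91, 6.25 and 5.57 in the knockdown and 0.472 and 2.90 in the controls. On both scales ITGB5 was above its partner in every library but control 1. Division by length multiplies a ratio by the same factor in every library, so it moves the level of a ratio and not the fold between groups. ITGA3 had 0.417, 0.313 and 0.377 times the reads per kilobase of ITGB1 in the knockdown, against 1.33 and 0.982 times in the controls. In plain reads these ratios were 0.513, 0.385 and 0.464 in the knockdown and 1.64 and 1.21 in the controls. Set against the other laminin-binding chain, ITGA3 had 0.135, 0.145 and 0.146 times the reads per kilobase of ITGA6 in the knockdown and 0.372 and 0.429 times in the controls. None of these 3 ratios overlapped between groups (exact permutation p = 0.1 on the log2 scale, the smallest possible, and 0.167 adjusted over the 10 ratios compared). The ratios of ITGB5 to ITGB1 and of ITGA5 to ITGA3 did not overlap either. Ratios that share ITGA3 are not separate results. For CPM of single genes, the groups did not overlap in 60.1% of all tested genes.

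For the pairs built on ITGA6 the groups did overlap. ITGA6 had 3.09, 2.16 and 2.58 times the reads per kilobase of ITGB1 in the knockdown and 3.58 and 2.29 times in the controls (exact permutation p = 0.6). ITGB4 had 0.133, 0.125 and 0.109 times the reads per kilobase of ITGA6 in the knockdown, against 0.118 and 0.258 times in the controls (exact permutation p = 0.4). Control 1 lay inside the knockdown range and control 2 above it. In plain reads the ratio of ITGA6 to ITGB1 was 4.39, 3.07 and 3.67 in the knockdown and 5.08 and 3.26 in the controls. That of ITGB4 to ITGA6 was 0.139, 0.131 and 0.114 in the knockdown and 0.123 and 0.270 in the controls. ITGA6 mRNA was thus above that of either beta partner in all 5 libraries on both scales. Per kilobase, the ratio of ITGA5 to ITGB1 was 0.170, 0.117 and 0.158 in the knockdown and 0.209 and 0.305 in the controls. That of ITGAV to ITGB1 was 0.447, 0.330 and 0.379 in the knockdown and 0.506 and 0.455 in the controls. Both were lower in each knockdown library than in either control (exact permutation p = 0.1 and 0.2). Without division by length the ratio of ITGA5 to ITGB1 was 0.177, 0.122 and 0.164 in the knockdown and 0.217 and 0.317 in the controls. That of ITGAV to ITGB1 was then 0.788, 0.582 and 0.669 in the knockdown and 0.893 and 0.802 in the controls. That of ITGA2 to ITGB1 overlapped, at 0.172, 0.132 and 0.154 per kilobase in the knockdown and 0.221 and 0.138 in the controls. In plain reads it was 0.332, 0.255 and 0.298 in the knockdown and 0.428 and 0.266 in the controls.

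**Figure D4:**
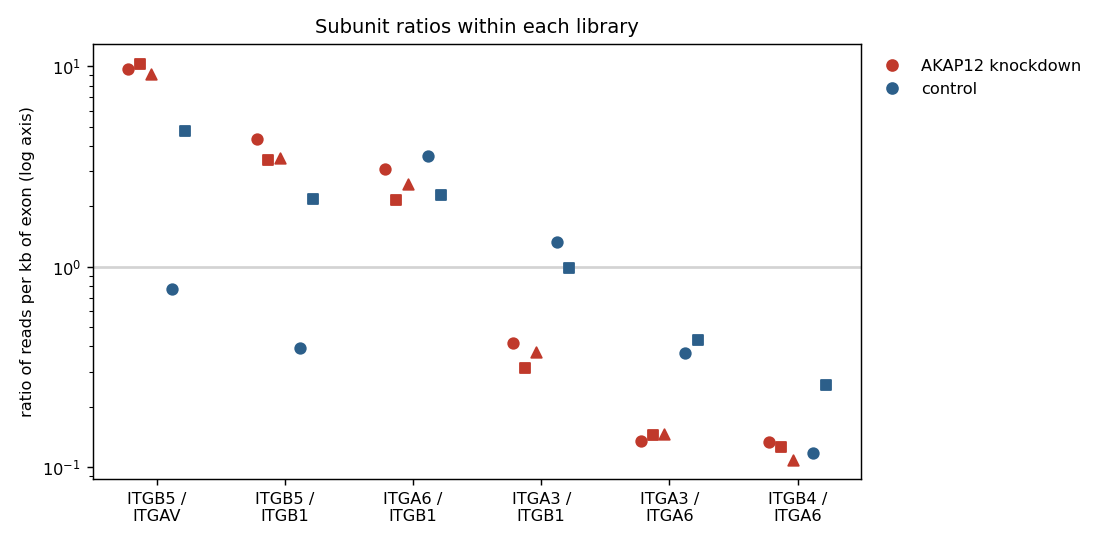
Ratio of reads per kilobase of exon between pairs of subunits in each library (log axis), knockdown in red to the left and control in blue to the right of each pair, with a line at 1. The ratio of ITGB5 to ITGAV is 9.16 to 10.3 in the knockdown and 0.777 and 4.77 in the controls, while that of ITGB4 to ITGA6 overlaps between groups.

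The summed level of the 10 genes depended on ITGB5. All 10 together had 946.8, 874.5 and 898.2 CPM in the knockdown libraries and 803.7 and 844.1 CPM in the controls. Without ITGB5 the sum was 593.2, 538.1 and 577.4 CPM in the knockdown and 770.9 and 648.9 CPM in the controls, so the order of the groups turned round. Leaving out ITGA3 as well gave 554.3, 502.5 and 537.4 CPM in the knockdown and 643.5 and 547.5 CPM in the controls, where the groups overlapped. The groups did not overlap in 5 of the 8 tested genes, against 60.1% of all tested genes.

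Of the 16 other integrin genes, 11 passed the filter, and 2 rose and 2 fell (36.4% called, against 22.6% of all genes). Counts were 2 and 1 without control 1, where 37.3% of all genes were called, and 3 and 3 without control 2, where 58.1% were called and ITGAD also entered the fit. Counts without a control in the lists that follow are to be read against the same shares of all genes. ITGAE, which pairs with ITGB7 to bind E-cadherin, rose to 54.6, 52.1 and 65.5 CPM in the knockdown libraries, against 7.84 and 15.9 CPM in the controls (log2 fold change 2.24, SE 0.34, edgeR adjusted p = 0.0158). Its partner ITGB7 had 7 to 15 reads in the knockdown and 3 and 14 in the controls. ITGB2, the beta chain of leukocyte integrins, rose to 14.2, 14.5 and 16.1 CPM in the knockdown, against 0 and 3.10 CPM in the controls (log2 fold change 3.00, SE 0.77, edgeR adjusted p = 0.0365). It was at 2.26 without control 1, and at least 20.3-fold higher than control 1 alone, taking 3 counts as that library's limit. Its leukocyte partners ITGAL and ITGAM were at 1.72 to 3.62 and 1.48 to 2.15 CPM in the knockdown and at 0.490 and 2.41, and 2.69 and 4.01 CPM, in the controls, and neither passed (edgeR adjusted p = 0.575 and 0.182). Exons of ITGB2 overlap ITGB2-AS1, which had 5 to 12 reads in the knockdown and 4 and 17 in the controls.

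ITGA1, a collagen-binding partner of ITGB1, fell to 54.8, 66.3 and 51.3 CPM in the knockdown libraries, against 136.0 and 99.4 CPM in the controls (log2 fold change -1.03, SE 0.23, edgeR adjusted p = 0.0265). Exons of ITGA1 overlap PELO, which had 129 to 212 reads in the knockdown and 12 and 143 in the controls, so some reads of these genes cannot be told apart. ITGA9, another partner of ITGB1, fell to 1.13, 1.61 and 0.984 CPM, against 8.82 and 2.64 CPM in the controls (log2 fold change -2.15, SE 0.62, edgeR adjusted p = 0.0487). The call of ITGA9 was lost with library size as the only scaling (edgeR adjusted p = 0.0675), by limma-voom (adjusted p = 0.0969) and without control 1, at -1.09 (edgeR adjusted p = 0.239). Log2 fold changes of the other tested genes were 1.19 for ITGA8, 0.47 for ITGA11, 0.22 for ITGA7, 0.05 for ITGA4 and 0.01 for ITGB7, and none of these passed. Exons of ITGA7 overlap METTL7B, which had 307 to 348 reads in the knockdown and 29 and 334 in the controls. ITGA7 itself had 283 to 356 reads and 80 and 374, so some of its reads cannot be told from those of METTL7B. Exons of ITGA4 overlap CERKL, with at most 2 reads per library. ITGB3, the remaining beta partner of ITGAV, had 11, 12 and 3 reads in the knockdown and 0 and 11 in the controls.

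Among 23 tested integrin ligand genes, 0 rose and 4 fell (17.4% called, against 22.6% of all genes; 2 up and 4 down without control 1, 7 and 9 without control 2). With library size as the only scaling the counts were 2 and 2 (18.2% of all genes called), so the one-sided direction depended on the scaling. DESeq2 called 0 higher and 5 lower, where it called 31.9% of all genes. FN1, the fibronectin ligand of ITGA5, had 375.6, 427.9 and 309.5 CPM in the knockdown libraries and 2388 and 883.3 CPM in the controls (log2 fold change -2.14, SE 0.41, edgeR adjusted p = 0.0217). It was -1.25 without control 1. TGFB1, whose latent form is a ligand of ITGAV receptors, was at 20.1, 24.2 and 18.6 CPM in the knockdown and at 143.8 and 51.6 CPM in the controls (-2.21, edgeR adjusted p = 0.0208; -1.30 with control 1 left out). LAMC1, a laminin gamma chain, was at -0.84 on the same scale (edgeR adjusted p = 0.0334, and 0.0622 with library size as the only scaling). NPNT, a basement membrane ligand, was at -1.30 (edgeR adjusted p = 0.0463) and missed the threshold by limma-voom (0.0683), by library size alone (0.0672) and without control 1 (-0.73, 0.0817). COL1A1, a collagen chain, was at 159.5 to 197.3 CPM in the knockdown and 173.7 and 185.8 CPM in the controls.

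Of 24 adaptors and kinases that act at integrin tails, 1 rose and 6 fell (29.2% called, against 22.6% of all genes; 4 up and 6 down without control 1, 6 and 11 without control 2). With library size as the only scaling the counts were 1 and 2, where 18.2% of all genes were called. PXN, the scaffold paxillin, rose to 73.1, 83.8 and 85.2 CPM in the knockdown, against 33.8 and 30.9 CPM in the controls (log2 fold change 1.32, edgeR adjusted p = 0.0158). Exons of PXN overlap PXN-AS1, with at most 12 reads per library. TLN1, the talin that activates integrins by binding the beta tail, fell to 292.8, 244.8 and 263.5 CPM, against 572.7 and 448.8 CPM in the controls (-0.94, edgeR adjusted p = 0.0279). Exons of TLN1 overlap CREB3, which had 439 to 651 reads in the knockdown and 313 and 579 in the controls. Some reads of TLN1 and CREB3 thus cannot be told apart. TGFB1I1, a paxillin relative, was at -1.29 (edgeR adjusted p = 0.0305), and ILK, a pseudokinase at integrin tails whose exons overlap TAF10, at -0.80 (edgeR adjusted p = 0.0333, and 0.0570 by library size alone). TAF10 had 1091 to 1450 reads in the knockdown and 798 and 1725 in the controls. ILK had fewer, at 699 to 946 and at 777 and 1278, so some ILK reads cannot be told from TAF10 reads. The alpha-actinin genes ACTN4 and ACTN1 were the most abundant and did not pass (0.14 and 0.35). Exons of ACTN4 overlap CAPN12, which had 5765 to 9496 reads in the knockdown and 69 and 700 in the controls.

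Of 12 tested inhibitors and trafficking factors, 2 rose and 3 fell (41.7% called, against 22.6% of all genes; 3 and 3 without control 1, 5 and 5 without control 2). ITGB1BP1, a protein that binds the ITGB1 tail in competition with talin, rose to 130.4, 127.1 and 148.6 CPM in the knockdown, against 51.0 and 81.0 CPM in the controls (log2 fold change 1.03, edgeR adjusted p = 0.0339). RAB21, a GTPase of integrin endocytosis, rose by 1.32 on the log2 scale (edgeR adjusted p = 0.0183). FLNA, the filamin that also competes with talin, was at -1.47 (edgeR adjusted p = 0.0213) and RAB11FIP1, a recycling adaptor, at -1.21 (edgeR adjusted p = 0.0193). KRIT1, a partner of ITGB1BP1, was at -0.24 and did not pass.

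Of 11 tested lateral partners, which sit beside integrins in the membrane, 4 rose and 1 fell (45.5% called, against 22.6% of all genes; 6 and 3 without control 1, 7 and 3 without control 2). DESeq2 called 4 higher and 3 lower, where it called 31.9% of all genes. The tetraspanin CD9, which associates with ITGA3 and ITGA6 receptors, had the largest change of the list, with 222.5, 320.8 and 339.7 CPM in the knockdown and 19.1 and 12.8 CPM in the controls (log2 fold change 4.22, SE 0.34, edgeR adjusted p = 0.0124). CD81, a related tetraspanin, fell to 294.1, 262.8 and 290.2 CPM, against 644.0 and 499.5 CPM in the controls (log2 fold change -1.02, edgeR adjusted p = 0.0234). PLAUR, the urokinase receptor, which binds integrins and vitronectin, rose by 2.38 (edgeR adjusted p = 0.0131). SLC3A2, the heavy chain of an amino acid transporter that binds beta tails, rose by 1.20 (edgeR adjusted p = 0.0355). CD63, a tetraspanin with 697.3 to 847.9 CPM in the knockdown and 54.4 and 542.1 CPM in the controls, did not pass (edgeR adjusted p = 0.238).

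Of 6 tested hemidesmosome partners of ITGB4, 2 rose and 1 fell (50% called, against 22.6% of all genes; 2 and 3 without control 1, 3 and 3 without control 2). DESeq2 called 2 higher and 3 lower, where it called 31.9% of all genes. DST, the plakin that ties ITGB4 to keratin, fell to 107.6, 120.9 and 106.1 CPM in the knockdown, against 229.0 and 194.6 CPM in the controls (log2 fold change -0.92, edgeR adjusted p = 0.0234). KRT5 (1.63, edgeR adjusted p = 0.0388) and KRT8 (1.78, edgeR adjusted p = 0.0195), keratins of the attached network, rose. KRT5 was at 2.48 without control 2 and missed the threshold by library size alone (edgeR adjusted p = 0.0537), and exons of KRT8 overlap KRT18, which was at 0.15. Of the epithelial markers of highest level, KRT19 was at -0.07 and did not pass (edgeR adjusted p = 0.828). In the stromal list 0 of 10 rose and 1 fell by edgeR and by DESeq2 (10% called, against 22.6% of all genes), the receptor gene PDGFRA (-1.08, edgeR adjusted p = 0.0265), while COL3A1 was at 0.40 (0 and 2 without control 1, and 7 and 2 without control 2, where 58.1% of all genes were called). Of the endothelial and platelet list 2 genes were tested, PECAM1 at -0.12 and VWF at -0.55, and 0 passed by edgeR, by DESeq2 or at an unadjusted p under 0.05. In the blood list of 12, 33.3% were called, against 22.6% of all genes. ITGB2 rose, and CD68 (-0.96), CSF1R (-1.41, -0.77 without control 1) and CD3D (-1.82) fell, with edgeR adjusted p values of 0.0377, 0.0378 and 0.0463. These 3 calls were lost by library size alone (edgeR adjusted p = 0.0822, 0.0537 and 0.0752), and that of CD3D, with at most 27 reads per library, also without control 2 (-1.53, edgeR adjusted p = 0.177). PTPRC was at 0.17 and HBB at 0.04.

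The genes with the profile most like that of ITGA3 over the 5 libraries were RPUSD1, MAPKBP1, ABLIM1, ACTR1A and PKM. Likeness was the Euclidean distance of log2 CPM, each gene centred on its own mean, among 7632 candidates whose log2 CPM averaged 4 or more. Distances ran from 0.123 for RPUSD1 to 0.226 for PKM. RPUSD1 had 24.8, 24.2 and 25.3 CPM in the knockdown and 79.6 and 69.4 CPM in the controls. PKM, the pyruvate kinase of glycolysis, had 977.0, 810.8 and 1030 CPM in the knockdown and 2882 and 2155 CPM in the controls.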

How the data were processed

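Counts per gene of 5 libraries were analysed. Per the file headers, the authors made these counts with featureCounts 1.6.2 from exon annotation, letting a read count for every gene it overlaps and setting no strand. Per the submitters' processing notes, STAR 2.7 was the aligner and hg38 the build, and DESeq2 1.22 was used. The authors' deposited table of their own comparison holds p-values, log2 fold changes with an SE and a test statistic (a score), and a mean signal. Its direction is not stated and was read from its correlation with the values fitted here (0.9994 across 14536 genes, which are not independent replicates).

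Genes were kept by filterByExpr (minimum count 10), scaled by TMM and tested two-sided with edgeR 4.0.16 (quasi-likelihood, R 4.3.3), with no covariate. Benjamini-Hochberg adjustment ran over all 14536 tested genes, and 0.05 was the threshold. Each SE is the size of the log2 fold change over the square root of its F value. Shares and ratios used the reads of one library, with exact 95% binomial intervals (SciPy 1.17.1), which cover counting error only, and exact permutation tests, two-sided. Alternatives were RLE scaling, library size alone, no filter, a filter of 5 CPM in 2 libraries, DESeq2 1.42.0, limma-voom (limma 3.58.1), removal of TERT and short RNA genes, the replicate number as a block, and each library left out. The procedure was tested on simulated counts.

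The 10 genes and the 11 lists were chosen with earlier results of these data known. Named genes were AKAP12, the 10 integrin genes, the other integrins, up to 4 called genes of smallest p and the 2 of highest mean CPM per list, and the 5 nearest profiles. Overlapping genes and single markers were named after their values were seen. The test results of 1 listed gene, and the call counts of the list that holds it, are not reported here.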

Additional observations from a re-analysis of the deposited data

How the results depend on the processing

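The edgeR count of 3282 called genes was 210 with the replicate number as a block and 0 to 8811 with each library left out. The 0 came without any 1 knockdown library, where 3774 to 4109 genes had an unadjusted p under 0.05 (DESeq2 was not run there). Integrin genes called higher were 1 by DESeq2, against 0 by edgeR, and 0 to 1 with each library left out. Those called lower were 0 under the block, against 1, and 0 to 3 with each library left out. In the lists beside the integrin genes the block left 0 lower calls and 0 to 2 higher calls each. Same-numbered libraries did not deviate together from their group means (r of -0.053 and -0.081 across genes). With 2 controls, the deviations of one mirror those of the other, so this check cannot decide whether the numbers pair the samples.

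Library size alone moved the log2 fold changes by a median of 0.20. Directions turned for values that had not passed the edgeR test, as follows. By DESeq2, ITGA4 was at -0.00255. By RLE scaling, ITGA4 was at -0.000117 and ITGB7 was at -0.0168. With library size alone, ITGA2 was at 0.0744, ITGA6 was at 0.13, COL1A1 was at 0.18, KRT19 was at 0.13 and PECAM1 was at 0.056. By limma-voom, ITGB7 was at -0.12. With no filter, COL1A1 was at 0.00474. With the replicate number as a block, PECAM1 was at 0.0462. Without TERT and short RNA genes, ITGB7 was at -0.000846. With each library left out in turn, log2 fold changes ran from -0.43 to 0.15 for ITGA2, -0.35 to 0.19 for ITGA6, -0.28 to 0.41 for ITGA4 and -0.22 to 0.90 for ITGA7. They ran from -0.0233 to 2.23 for ITGAL, -0.36 to 0.75 for ITGB7, -0.11 to 0.0472 for COL1A1 and -0.40 to 1.02 for ACTN4. They ran from -0.23 to 1.32 for ACTN1, -0.33 to 0.86 for KRT18, -0.16 to 0.0396 for KRT19 and -0.49 to 0.41 for PECAM1. They ran from -0.0853 to 0.50 for PTPRC and -0.51 to 1.06 for HBB. With each library left out in turn, differences in share, in percentage points (knockdown minus control), ran from -2.51 to 0.28 for ITGA5 in alpha members, -0.84 to 2.05 for ITGAV in alpha members, -0.26 to 0.0471 for ITGB6 in beta members and -0.22 to 0.0495 for ITGB8 in beta members. They ran from -0.12 to 2.72 for ITGB5 in beta partners of ITGAV alone, -1.39 to 0.064 for ITGB6 in beta partners of ITGAV alone and -1.34 to 0.0544 for ITGB8 in beta partners of ITGAV alone. The causes were not tested. Depth limits ITGB6 and ITGB8, at most 5 reads per library.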

Other observations

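ITGAD, a leukocyte alpha chain that did not pass the filter, had 2, 7 and 2 reads in the knockdown libraries and 48 and 10 reads in the controls. Scaled to the summed TMM-scaled library size of each group, the ratio of knockdown over control was 0.0957 (exact 95% counting interval 0.0453 to 0.184). Control 1 held 48 of the 58 control reads. Without control 1, a comparison chosen after seeing the data, the scaled ratio was 0.378 (0.146 to 0.993). ITGA10, ITGAX and ITGA2B had at most 11 reads in any library.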
